A study of Mus musculus with 16 samples.

Results

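Garlic oil given together with alcohol was compared with a control diet in the mouse liver, across all genes measured. Of the 16 liver arrays of the series, 8 belong to the comparison, 4 from mice labelled as garlic oil with alcohol liquid diet and 4 from mice labelled as control liquid diet. The garlic oil mice were male C57BL/6 mice that took the Lieber-DeCarli ethanol diet, a liquid diet used to model alcoholic fatty liver, and were gavaged daily for 4 weeks with 50 mg/kg of garlic oil in 0.1 ml of olive oil. The control mice were male C57BL/6 mice that were pair-fed the same kind of liquid diet without ethanol and received 0.1 ml of olive oil alone. The groups therefore differ in ethanol and in garlic oil at once. They also differ in the Illumina BeadChip on which their arrays lay, since the identifiers of the files place the garlic oil arrays at positions 5 to 8 of chip 1 and the control arrays at positions 1 to 4 of chip 2. Ethanol, garlic oil and chip cannot be told apart within these 8 arrays. The 4 alcohol arrays of the series, from mice given the ethanol diet and olive oil alone, lay on chip 2 with the control arrays, and their values are set beside the results. Alcohol replicate 1 stands apart: 5 pancreatic acinar genes summed to an intensity of 219582 there, against 747 to 2531 on the other 15 arrays of the series, so direct differences from alcohol mice are also given without it where a call changes. No value separates a change in the number of cells of a type from a change in RNA per cell.

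The test took genes with a probe detected (p under 0.05 over negative controls) on 4 or more of the 8 arrays, which left 7811 genes. The garlic oil arrays detected 11133 to 11331 probes each, and the control arrays 10631 to 10874. Replicates correlated at 0.978 to 0.987 among garlic oil arrays and at 0.989 to 0.993 among control arrays, and the mean spread of a gene within a group was 0.255 and 0.184 (SD, log2 scale). The number of arrays limits the precision, with a median SE of 0.16 for a log2 difference. Levels are log2 normalized intensities of 1 probe per gene, and differences are garlic oil minus control on the log2 scale ± SE from limma's fit (n = 4 mice per group), with p-values adjusted by Benjamini-Hochberg over all 7811 genes. A gene rose or fell where this adjusted p was under 0.05. Counts of a few members per list depend on single arrays: of 69 counts above 0 in the lists, 28 moved by over 1.5 times when 1 of the 8 arrays was left out, of which 24 were counts of 4 or fewer. The labels call the mice of a group biological replicates.

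Ethanol is oxidised in hepatocytes by alcohol dehydrogenase and by the cytochrome P450 CYP2E1 to acetaldehyde, which aldehyde dehydrogenase 2 clears. Garlic oil is a mixture of allyl sulfides, compounds known in rodents to inhibit CYP2E1 and to induce drug-metabolising enzymes through the nuclear receptors CAR and PXR and through the transcription factor NRF2. Prolonged ethanol feeding is known for fat accumulation in hepatocytes and for disturbed bile acid, retinoid and glucose metabolism.

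The largest rises were of cytochrome P450 genes of the Cyp2b subfamily. The largest falls were mixed. They included Hsd3b5 and further genes whose expression is typical of the male liver, beside Tsc22d1, Cyp7a1, Serpina12 and Nrep. In all, 1495 genes (19.1% of those tested) changed, of which 709 (9.08%) rose and 786 (10.1%) fell. The counts of each list below stand beside these shares of all genes. By at least 2-fold, 154 genes (1.97%) rose and 101 genes (1.29%) fell. The values of the groups did not overlap for 1971 genes (25.2%), changed or not. Principal component 1 of the 8 arrays held 53.9% of the variance and separated the groups. Of the genes that rose, 35 were detected on no control array, and of those that fell, 8 were detected on no garlic oil array. The split between rises and falls moved with the scaling: scaling each array by its median in place of quantile normalization gave 1019 rises and 344 falls, so that 74.8% of the calls were rises, against 47.4% in the main setting, and the median difference of all genes was 0.078 in place of -0.05.

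**Figure D1:**
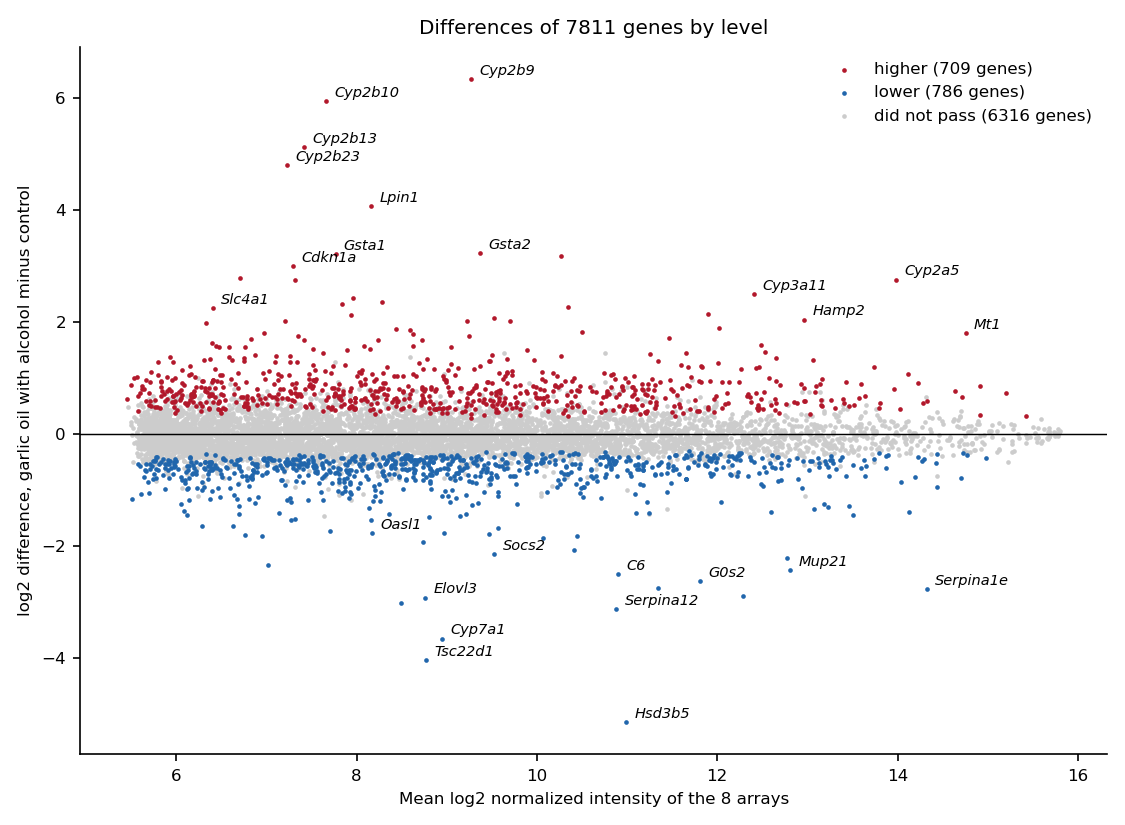
Difference of each of 7811 genes (vertical axis, log2, garlic oil with alcohol minus control) against its mean level on the 8 arrays (horizontal axis, log2 normalized intensity). Red points are the 709 genes that rose, blue points the 786 that fell and grey points those that did not pass; the Cyp2b genes stand at the top and Hsd3b5 at the bottom.

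CAR and PXR switch on genes for the uptake, oxidation and export of foreign compounds, and most of their tested targets rose. Of 28 targets on the array, 20 were tested, of which 18 rose and 0 fell. Members such as Cyp2b10 passed the detection filter only through the garlic oil arrays and had to differ, so the count is read from the 15 members detected on all 8 arrays, of which 13 rose, beside 9.08% of all genes. Cyp2b10, the classical CAR target of the mouse liver, had levels of 9.89, 11.01, 11.26 and 10.40 in garlic oil mice, against 4.70, 4.71, 4.68 and 4.68 in control mice. The probe was detected on all garlic oil arrays and on no control array, so the ratio is a bound taken against the detection limit of the control arrays. Cyp2b10 was at least 30.0-fold higher (adjusted p = 7.39e-07). By the same kind of bound, Cyp2b13 lay at least 19.1-fold above control, and for Cyp2b23 the bound was 14.9-fold.

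Cyp2b9, a further member of the subfamily, stood at 12.44, 12.18, 12.09 and 13.04 in garlic oil mice, against 5.65, 6.67, 6.53 and 5.53 in control mice, of which 2 detected it. It had the largest measured rise of all genes (6.34 ± 0.33, adjusted p = 3.35e-09). Members of the Cyp2b family have near-identical sequences, so a probe may read more than 1 of them. Cyp2a5, the coumarin hydroxylase, read 15.54, 15.27, 15.24 and 15.40 in garlic oil mice, against 12.26, 12.30, 12.59 and 13.26 in control mice. Every garlic oil value lay above the highest control value, and the gene rose 6.77-fold (adjusted p = 7.97e-07). Cyp3a11, a classical PXR target, read 13.81, 13.37, 13.48 and 13.98 in garlic oil mice and 10.85, 11.30, 11.63 and 10.89 in control mice. It rose 5.63-fold (adjusted p = 7.01e-05).

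Further members of the list act before and after oxidation. Slco1a4, an uptake transporter for organic anions, rose by 1.51 ± 0.23, and Abcc3, which exports conjugates to the blood, by 0.82 ± 0.14. Ces2a, a carboxylesterase, rose by 1.10 ± 0.18. Nr1i2, which encodes PXR itself, rose by 0.60 ± 0.12 (adjusted p = 0.00199), while Nr1i3, which encodes CAR, differed by 0.28 ± 0.18 (adjusted p = 0.297) and Alas1, the first enzyme of heme synthesis, by 0.06. The summed intensity of the list was 175879 to 208153 in garlic oil mice and 84637 to 100927 in control mice.

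**Figure D2:**
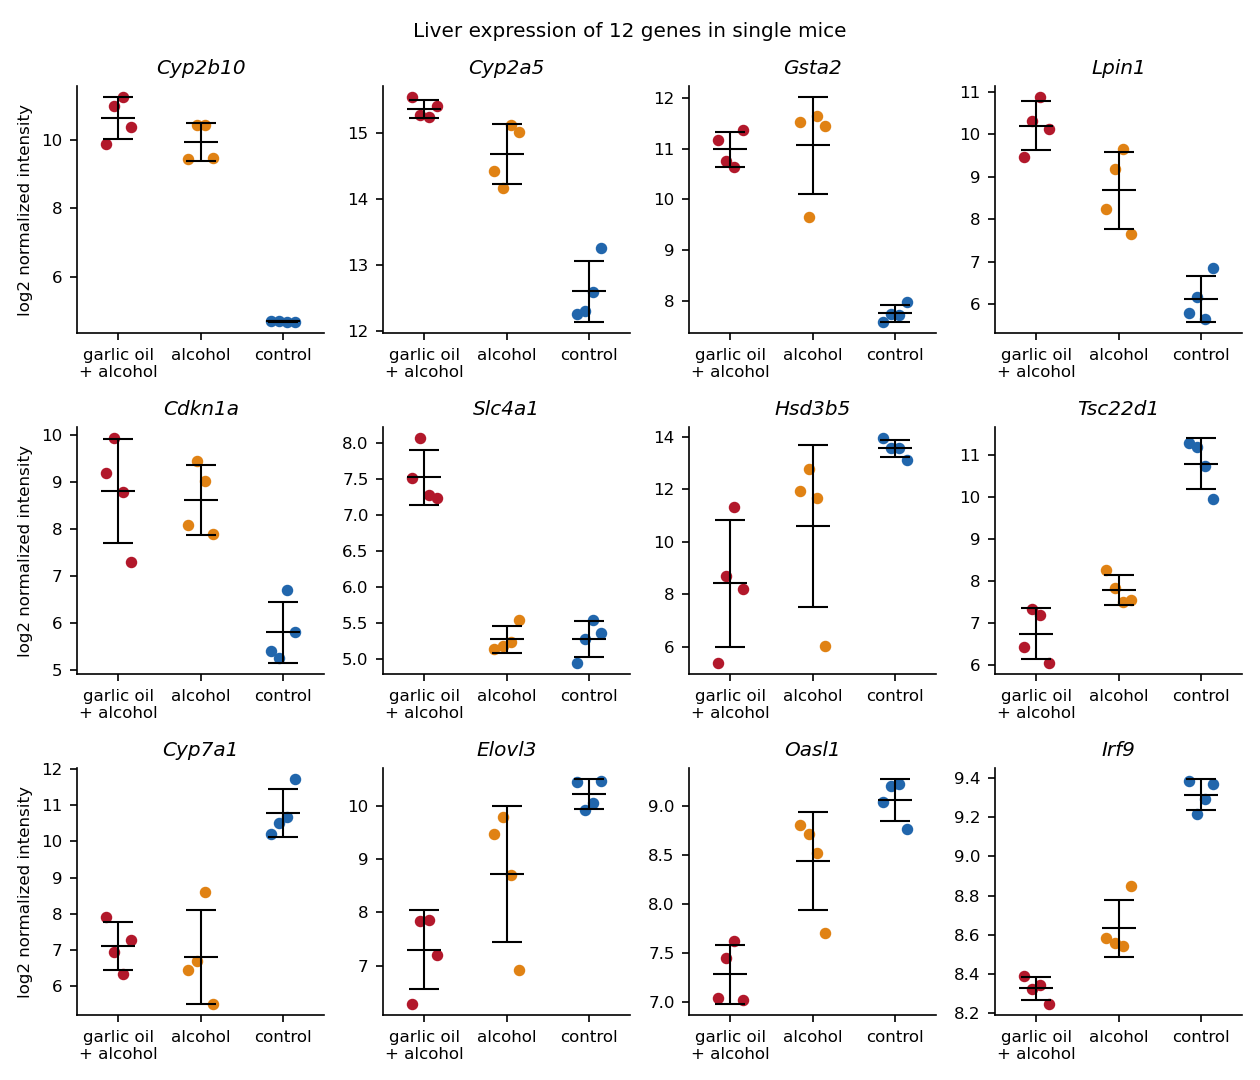
Levels of 12 genes (log2 normalized intensity) in single mice, with garlic oil and alcohol in red, alcohol in orange and control in blue; black lines are means with SD (n = 4 mice per group). Cyp2b10, Cyp2a5, Gsta2, Lpin1, Cdkn1a and Slc4a1 are higher in every garlic oil mouse than in every control mouse, and the other 6 genes are lower; Slc4a1 in alcohol mice lies among the control values.

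Glutathione S-transferases join glutathione to reactive compounds. Of 19 tested, 12 rose and 0 fell, beside 9.08% and 10.1% of all genes, with a median difference of 0.77. Of the 18 members detected on all 8 arrays, 11 rose and 0 fell. Gsta2 had levels of 11.18, 10.75, 10.64 and 11.37 in garlic oil mice, against 7.59, 7.73, 7.71 and 7.98 in control mice. The groups were far apart, and Gsta2 rose 9.42-fold (adjusted p = 5.23e-05). Gsta1 read 10.47, 9.60, 8.11 and 9.31 in garlic oil mice and 5.42, 5.74, 6.53 and 6.96 in control mice, of which 2 detected it. Its rise of 3.21 ± 0.56 (adjusted p = 0.00106) stands beside one of 5.42 in alcohol mice over the same controls. Garlic oil mice lay below alcohol mice, with a difference of -2.21 (adjusted p = 0.048), which did not pass without alcohol replicate 1 (adjusted p = 0.076). Gstm1, the main mu class enzyme of the mouse liver, rose over control (1.19 ± 0.20) and was lower than in alcohol mice (-0.81, adjusted p = 0.042). Gsta4, which conjugates the lipid peroxidation product 4-hydroxynonenal, rose by 2.01 ± 0.23, Gstt3 by 1.47 ± 0.16 and the microsomal Mgst3 by 1.32 ± 0.21. The pi class gene Gstp1 had a difference of -0.32 and Gsto1 one of 0.03, and neither passed.

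Among 18 other NRF2 targets, 8 rose and 2 fell. With 1 array left out, 5 to 7 rose (5 without garlic oil replicate 1 or control replicate 2) and 0 or 1 fell. Nqo1 passed the detection filter only through the garlic oil arrays. Of the 16 members detected on all 8 arrays, 7 rose and 2 fell. Nqo1, a quinone reductase and a standard marker of NRF2 activity, read 7.04, 5.77, 6.29 and 6.67 in garlic oil mice, against 5.38, 5.04, 5.20 and 4.97 in control mice, where no array detected it. It was at least 1.63-fold higher (adjusted p = 0.00596). Srxn1, the sulfiredoxin that repairs oxidised peroxiredoxins, read 10.92, 9.57, 9.84 and 10.16 in garlic oil mice and 8.42, 8.09, 8.63 and 8.34 in control mice. It rose 3.36-fold (adjusted p = 0.00292). The carbonyl reductase gene Cbr3 rose 5.02-fold (adjusted p = 0.0193), with garlic oil values spread from 7.35 to 11.08. Txnrd1, the cytosolic thioredoxin reductase, rose by 0.86 ± 0.18. Other well-known members did not pass: Hmox1, the inducible heme oxygenase, differed by 0.41 (95% interval -0.13 to 0.95) and Gclc, the catalytic subunit of the first enzyme of glutathione synthesis, by 0.39 (-0.26 to 1.04). The members that fell were Taldo1, a pentose phosphate enzyme (-0.36 ± 0.12), and Osgin1 (-1.21 ± 0.39). Of AHR, the dioxin receptor, and its targets, 2 genes were tested. The brightest of 3 probes of the UDP-glucuronosyltransferase Ugt1a6a was called higher (0.88 ± 0.22), but both of its other probes were called lower and the mean of the probes gave -0.35, so no direction is given.

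Of 11 genes of ethanol and acetaldehyde oxidation, 1 rose and 0 fell, and the median difference was -0.08. Cyp2e1 read 15.69, 15.64, 15.50 and 15.66 in garlic oil mice and 15.67, 15.72, 15.81 and 15.64 in control mice. The groups overlapped, and the 95% interval of the difference ran from -0.29 to 0.11 (-0.09, adjusted p = 0.549). Aldh2 differed by -0.08 (-0.28 to 0.13) and Adh1 by 0.41 (0.07 to 0.74, adjusted p = 0.0853), and Adh1 passed under median scaling (0.60, adjusted p = 0.0258) and without garlic oil replicate 2 (0.51, adjusted p = 0.0453). These probes are among the brightest of the array, where signal may compress differences; that was not tested. Aldh1b1, a mitochondrial aldehyde dehydrogenase, read 8.15, 9.14, 9.34 and 9.49 in garlic oil mice and 7.64, 7.71, 8.52 and 8.10 in control mice, with overlap. Its rise of 1.04 ± 0.28 (adjusted p = 0.0175) did not pass without garlic oil replicate 4, control replicate 1 or control replicate 2.

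In retinoid metabolism, 2 of 11 genes rose and 2 fell. Cyp26a1, which degrades retinoic acid, rose by 1.57 ± 0.28 over control. Its difference from alcohol mice was -1.15 (adjusted p = 0.042) and did not pass without alcohol replicate 1 (-0.94, adjusted p = 0.09). Aldh1a7, a relative of the retinaldehyde dehydrogenases, rose by 0.87 ± 0.15, and the retinal reductase Dhrs4 fell by 0.77 ± 0.13. Sulfur amino acid genes also moved both ways, with 4 of 20 higher and 3 lower. Chac1, which cleaves glutathione, rose 3.44-fold, with 9.50, 9.88, 9.47 and 9.20 in garlic oil mice and 8.66, 8.06, 7.44 and 6.77 in control mice. Csad, the decarboxylase of taurine synthesis, fell 3.65-fold (adjusted p = 0.00166). Sqor, the mitochondrial enzyme that oxidises hydrogen sulfide, rose by 0.68 ± 0.14.

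Of 21 bile acid genes tested, 7 rose and 3 fell. The members that fell were 3 enzymes of synthesis, and those that rose were 2 enzymes and 5 transporters. Of those detected on all 8 arrays, 4 rose. Cyp7a1, whose enzyme limits the rate of the classical pathway, read 7.91, 6.95, 6.34 and 7.27 in garlic oil mice, against 10.21, 10.51, 10.67 and 11.71 in control mice. The values did not overlap, and Cyp7a1 fell 12.6-fold (-3.66 ± 0.68, adjusted p = 0.00166). Cyp8b1, the 12-alpha-hydroxylase that sets the share of cholic acid, read 14.02, 14.39, 14.17 and 13.29 in garlic oil mice and 14.85, 14.92, 14.74 and 15.17 in control mice. Its difference of -0.95 ± 0.27 (adjusted p = 0.0226) did not pass without garlic oil replicate 4, without control replicate 2 or 4, or without the detection filter. Cyp7b1, of the alternative pathway, fell by 1.45 ± 0.31. Akr1d1, the delta-4-3-oxosteroid reductase, rose by 1.30 ± 0.17 and Cyp39a1, an oxysterol hydroxylase detected on no control array, was at least 3.02-fold higher. The other members that rose were transporters: Abcb11, the bile salt export pump, rose by 1.40 ± 0.27, beside Slco1a4, Abcc3, Abcc2 and Slc51b. Nr1h4, which encodes the bile acid receptor FXR, had a difference of -0.01.

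The mouse liver expresses many genes at different levels in males and females, a difference known to be set by the pattern of growth hormone release through STAT5B. All mice here were male. Of 25 male-biased genes tested, 16 fell and 1 rose, beside 10.1% and 9.08% of all genes, with a median difference of -1.38. Members such as Cyp2u1 passed the detection filter mainly through the control arrays. Of the 20 members detected on all 8 arrays, 12 fell and 1 rose. Hsd3b5, a male-specific steroid dehydrogenase, read 5.39, 8.71, 11.34 and 8.22 in garlic oil mice, against 13.95, 13.58, 13.59 and 13.13 in control mice. Every garlic oil mouse lay below every control mouse, but the garlic oil mice also differed from each other by far more than the control mice did. Hsd3b5 had the largest fall of all genes (-5.15 ± 1.24, adjusted p = 0.00878). Elovl3, a fatty acid elongase, read 6.29, 7.84, 7.87 and 7.21 in garlic oil mice and 10.44, 9.93, 10.05 and 10.48 in control mice. It fell 7.59-fold (adjusted p = 0.000869).

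Cyp4a12a, a male-specific fatty acid hydroxylase, fell 7.46-fold and its neighbour Cyp4a12b 6.77-fold. Mup21, of the major urinary protein family of pheromone carriers, fell 5.42-fold (adjusted p = 5.66e-05), while the other 3 of that family tested did not pass. Serpina1e, a protease inhibitor of the alpha-1-antitrypsin family, read 11.39, 13.55, 14.39 and 12.41 in garlic oil mice and 15.84, 15.65, 15.67 and 15.69 in control mice. Its difference of -2.78 ± 0.76 (adjusted p = 0.0181) rested on a garlic oil group with a wide spread, and did not pass without garlic oil replicate 1 or 4 or without the detection filter. Ces2a was the male-biased member that rose. Of 23 female-biased genes on the array, 9 were tested, of which 6 rose and 0 fell. Cyp2b9 and Cyp2b13, which also belong to the CAR and PXR list, passed the detection filter through the garlic oil arrays; of the 7 detected on all 8 arrays, 4 rose. Cyp17a1, the 17-alpha-hydroxylase, rose 4.83-fold (2.27 ± 0.44, adjusted p = 0.00208), and the values of the groups did not overlap. Hamp2, a hepcidin gene, read 14.01, 13.84, 13.69 and 14.38 in garlic oil mice and 11.22, 11.74, 12.41 and 12.38 in control mice, and rose 4.12-fold (adjusted p = 0.000581).

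In the growth hormone and IGF1 axis, 4 of 14 genes fell and 2 rose. The number of falls was 1 without control replicate 3, 2 without garlic oil replicate 4 or control replicate 2 and 8 with the replicate number as a block. Socs2, a STAT5-induced feedback inhibitor, read 10.26, 7.16, 7.81 and 8.58 in garlic oil mice and 10.42, 9.42, 11.42 and 11.14 in control mice. Garlic oil replicate 1 lay within the control range, and the difference of -2.15 ± 0.57 (adjusted p = 0.0149) did not pass without control replicate 3. Igfals, the acid-labile subunit that binds IGF1 in serum, fell by 1.30 ± 0.22 and Igfbp3, a further member of that complex, by 0.90 ± 0.25. Igf1 itself differed by 0.02 (95% interval -0.37 to 0.41). Igfbp1, an IGF-binding protein that insulin represses, rose 4.04-fold (adjusted p = 0.00472). Bcl6, a transcriptional repressor known from the male liver, had a difference of -1.44 that did not pass.

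Lipid genes did not move as 1 group. Of 24 lipogenesis genes, 4 rose and 3 fell (1 without garlic oil replicate 1 or 4 or control replicate 3), and the median difference was -0.05, that of all genes. Lpin1, a phosphatidate phosphatase of triglyceride synthesis and a nuclear coactivator, read 9.47, 10.32, 10.87 and 10.12 in garlic oil mice, against 5.81, 6.17, 5.66 and 6.86 in control mice. It rose 16.8-fold (adjusted p = 1.26e-05), the largest rise among genes outside the Cyp2b subfamily. Srebf1, which encodes the regulator SREBP1, differed by 0.06 (95% interval -0.53 to 0.65) and Scd1, the stearoyl-CoA desaturase, by -0.28 (-0.93 to 0.37). Elovl5, which elongates polyunsaturated fatty acids, fell by 0.86 ± 0.13. Fasn, the fatty acid synthase, was detected on 1 garlic oil array and on 0 control arrays and was not tested.

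Of 17 genes of lipid droplets, lipolysis and uptake, 5 fell and 2 rose. G0s2, the inhibitor of adipose triglyceride lipase, read 10.24, 10.59, 10.91 and 10.22 in garlic oil mice and 13.90, 13.16, 12.80 and 12.64 in control mice. It fell 6.21-fold (adjusted p = 1.42e-05). Vldlr, the very low density lipoprotein receptor, read 9.95, 8.82, 8.21 and 9.02 in garlic oil mice and 6.28, 6.75, 7.21 and 7.28 in control mice, and rose 4.35-fold (adjusted p = 0.000602). Mgll, the monoglyceride lipase, fell by 0.89 ± 0.17. Plin2, the coat protein of lipid droplets in hepatocytes, differed by -0.18 (adjusted p = 0.727). Fabp1, the liver fatty acid binding protein, fell by 1.45 ± 0.18 on a probe detected on 1 garlic oil array, which is dim for a gene known as abundant in the liver.

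In fatty acid oxidation and the targets of its regulator PPARA, 24 of 33 differences were below 0, but 4 genes fell and 1 rose. The number of falls was 1 without garlic oil replicate 4, 2 without garlic oil replicate 2 or control replicate 1, 7 without garlic oil replicate 1 and 9 with array weights. Decr1, a dienoyl-CoA reductase, fell by 0.81 ± 0.18 and Bdh1, the ketone body dehydrogenase, by 0.75 ± 0.20. The call of Bdh1 did not pass without garlic oil replicate 4. Fgf21, the fasting hormone that PPARA induces, read 9.74, 7.96, 8.84 and 7.77 in garlic oil mice and 11.20, 10.28, 9.40 and 10.55 in control mice. The groups overlapped, and the difference of -1.78 ± 0.50 (adjusted p = 0.0203) did not pass without garlic oil replicate 2 or 4, without control replicate 1 or without the detection filter. Cpt1a, the gate of mitochondrial uptake, differed by -0.34 (adjusted p = 0.156) and Ppara by 0.27 (adjusted p = 0.24). Of 18 cholesterol synthesis genes, 1 fell and 0 rose: Sc5d, the lathosterol oxidase, fell 2.15-fold.

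Genes that glucocorticoids induce gave 7 rises and 1 fall of 16, with a median of 0.80. Of the 14 detected on all 8 arrays, 6 rose and 1 fell, beside 9.08% and 10.1% of all genes. Fkbp5, a co-chaperone of the glucocorticoid receptor, read 10.06, 10.18, 10.19 and 10.05 in garlic oil mice and 8.54, 8.54, 8.81 and 9.35 in control mice. It rose by 1.31 ± 0.23 (adjusted p = 0.00101), and was higher than in alcohol mice by 1.38 (adjusted p = 0.0068). Ddit4, an inhibitor of mTORC1 signalling, rose 5.39-fold, with 9.11, 10.62, 7.81 and 9.16 in garlic oil mice and 6.86, 6.48, 6.61 and 7.04 in control mice. The metallothioneins, small zinc-binding proteins, rose too: Mt1 read 15.73, 15.70, 15.47 and 15.74 in garlic oil mice and 13.58, 14.22, 14.33 and 13.29 in control mice, and rose 3.49-fold (adjusted p = 7.32e-05). Slc39a4, a zinc importer, rose by 1.00 ± 0.11. The member that fell was Gadd45a, a DNA damage response gene (-1.32 ± 0.36).

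Of 16 clock genes, 4 rose and 0 fell. Per1, a core repressor that glucocorticoids also induce, rose by 1.87 ± 0.43, Usp2, a clock-controlled deubiquitinase, by 2.07 ± 0.41, and Ciart, a clock repressor, by 2.02 ± 0.51. Arntl, which encodes the activator BMAL1, differed by -0.18 and Dbp, a clock output gene, by -1.11, and neither passed. Hours of tissue collection are not given in the sources used here. Rgs16, a regulator of G protein signalling, read 11.91, 12.12, 10.80 and 12.62 in garlic oil mice and 8.73, 8.86, 7.61 and 9.53 in control mice, and rose 9.05-fold (adjusted p = 0.000354).

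In glucose metabolism 5 of 21 genes rose and 2 fell. Slc37a4, which carries glucose 6-phosphate into the endoplasmic reticulum, rose by 1.30 ± 0.17, and Pck1, the phosphoenolpyruvate carboxykinase of gluconeogenesis, by 0.95 ± 0.21. G6pc, the catalytic subunit of glucose 6-phosphatase, read 12.91, 12.97, 12.46 and 12.41 in garlic oil mice and 13.41, 13.37, 12.96 and 13.24 in control mice. The difference of -0.56 did not pass (adjusted p = 0.0693), but it passed with array weights and in fits of the 8 arrays alone (adjusted p = 0.0323). Irs2, an adaptor of the insulin receptor, fell 3.32-fold (adjusted p = 0.0126).

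Cdkn1a, which encodes the cell cycle inhibitor p21, read 9.19, 9.92, 8.78 and 7.30 in garlic oil mice, against 5.41, 5.27, 6.70 and 5.82 in control mice, of which 2 detected it. It rose 8.0-fold on this probe (adjusted p = 0.00115), while the gene's other passing probe differed by 1.55 on the log2 scale. The p53 targets Mdm2 (0.09) and Ccng1 (0.11) did not pass, while Plk2, a polo-like kinase, fell by 0.95 ± 0.22 and Gadd45a, given above, fell too. Of 18 genes of cell cycle arrest and DNA damage, 3 rose and 4 fell, and 2 fell without control replicate 1 or 2. Tsc22d1, a transcription regulator induced by TGF-beta, read 6.42, 7.33, 7.18 and 6.05 in garlic oil mice, against 11.28, 11.19, 10.73 and 9.95 in control mice. It fell 16.5-fold (adjusted p = 9.18e-07), the second largest fall of all genes. Of 11 cell division genes, 2 fell, but neither call was stable. The mitotic kinase gene Plk1, which no garlic oil array detected, did not pass under median scaling or without garlic oil replicate 3 or control replicate 2. The cyclin gene Ccnd2 did not pass under 7 alternatives, and the number of falls ran from 0 to 3 with 1 array left out. Of 18 genes of the ATF4 stress pathway, 3 rose and 2 fell, and Ddit3, which encodes CHOP, differed by -0.25 (adjusted p = 0.419).

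Of 31 proteasome subunits tested, 18 rose by small amounts and 1 fell, beside 9.08% and 10.1% of all genes, and 12 did not pass. The median was 0.45, and 26 differences were above 0. Psmd14, the deubiquitinase of the regulatory lid, read 11.05, 10.71, 10.90 and 10.78 in garlic oil mice and 9.88, 9.70, 10.03 and 10.07 in control mice. It rose 1.92-fold (adjusted p = 0.000161). Psmd11, a lid subunit, read 9.72, 9.80, 9.71 and 9.83 in garlic oil mice and 8.79, 8.84, 8.86 and 9.05 in control mice, and rose 1.84-fold (adjusted p = 0.000166). The ATPase subunit Psmc6 rose 1.97-fold and the core subunit Psmb3 1.56-fold. The subunit that fell was Psmb9, a catalytic subunit of the immunoproteasome, which interferon induces (-0.81 ± 0.19). Rises numbered 11 without control replicate 2 and 23 under median scaling. Of 22 chaperones, 4 rose and 0 fell: the mitochondrial pair Hspe1 (0.99 ± 0.17) and Hspd1 (0.59 ± 0.11), Herpud1 (0.86 ± 0.18), of degradation at the endoplasmic reticulum, and Hspb8 (0.78 ± 0.21), which did not pass without control replicate 2 or 3.

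Genes of the periportal zone, where the urea cycle lies, gave 9 rises and 1 fall of 15, with a median of 0.76. The shares of all genes were 9.08% higher and 10.1% lower. Ass1, the argininosuccinate synthase, read 14.32, 14.93, 14.60 and 14.76 in garlic oil mice and 13.30, 13.43, 13.75 and 13.87 in control mice, and rose 2.10-fold (adjusted p = 0.000463). Cps1, which makes carbamoyl phosphate, rose by 0.98 ± 0.20 and Etnppl, a phospholyase, by 1.67 ± 0.26. The fall was that of Nags, which makes the activator of Cps1 (-0.69 ± 0.22). Genes of the pericentral zone gave 5 rises and 3 falls of 15, with 1 or 2 falls when 1 array was left out. Glul, the glutamine synthetase of the innermost cells, rose 2.52-fold, with 10.57, 9.75, 10.21 and 10.82 in garlic oil mice and 9.08, 8.79, 8.94 and 9.19 in control mice. Tbx3 (-1.27 ± 0.22) and the Wnt target Axin2 (-0.61 ± 0.19) fell. The rest of the zone's list included Cyp2e1 and Cyp1a2 (0.33), which did not pass.

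**Figure D3:**
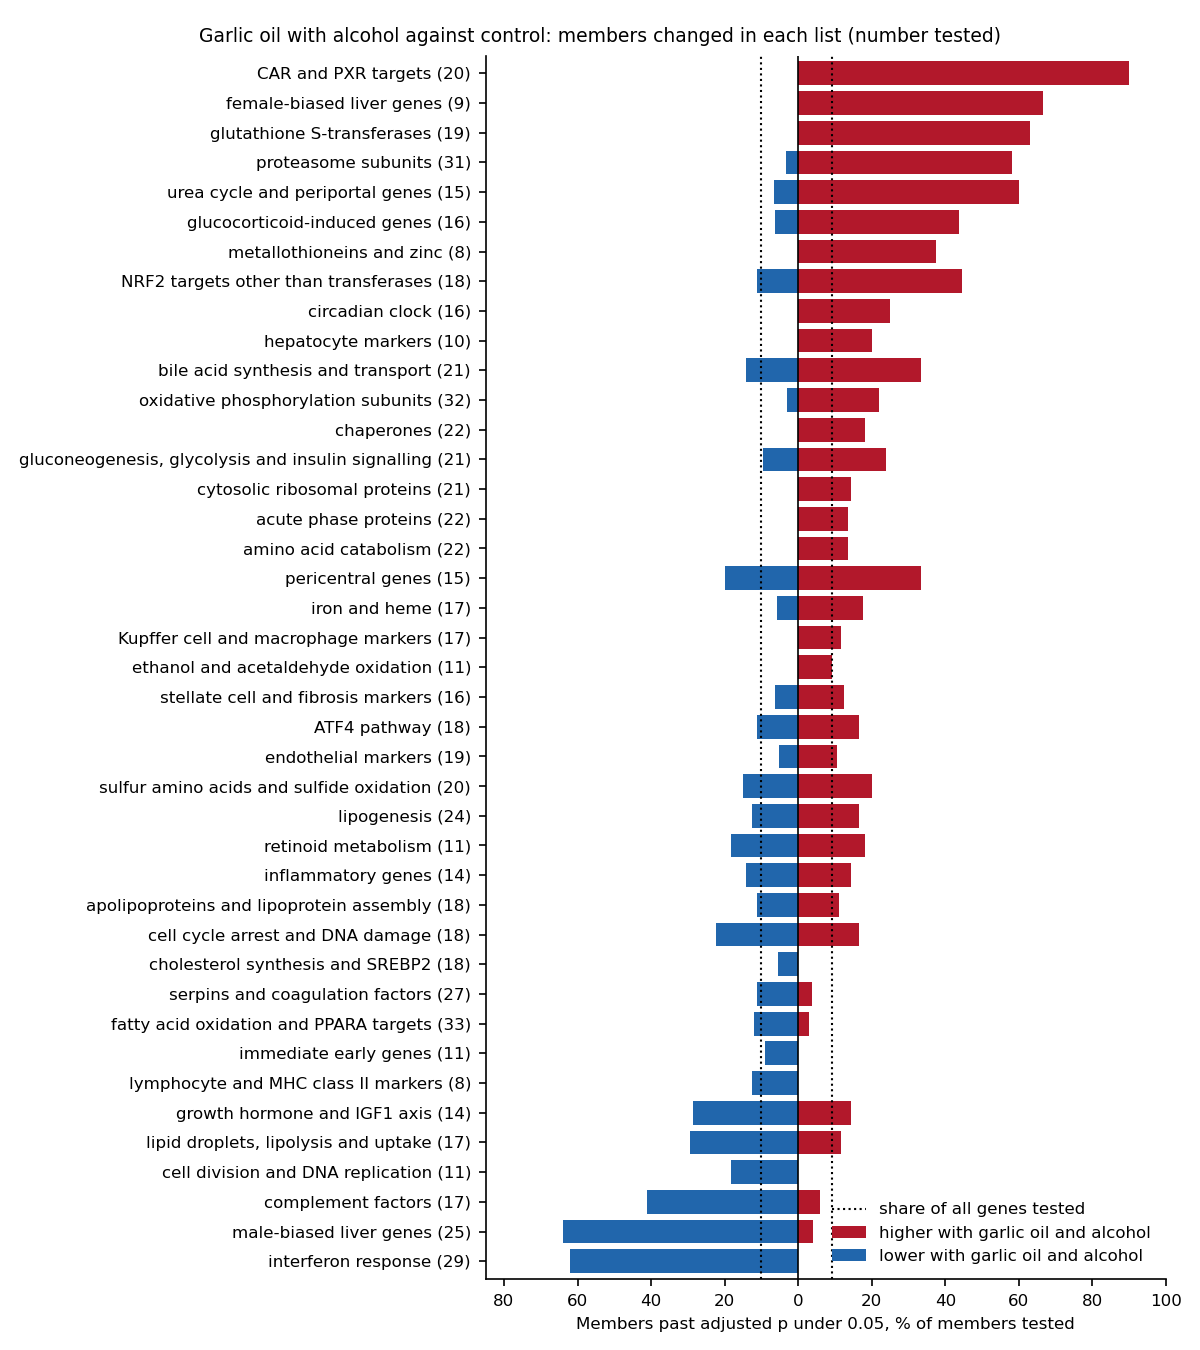
Share of each list's tested members that rose (red, to the right) or fell (blue, to the left) in garlic oil mice against control mice, in % of the members tested, for lists with at least 8 tested members (number in brackets). Dotted lines are the shares of all genes tested, 9.08% higher and 10.1% lower. The CAR and PXR list reaches 90% at the right, and the interferon and male-biased lists reach 62.1% and 64% at the left. These bars include members that passed the detection filter only or mainly through the group where they are higher.

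Interferon-response genes, which cells switch on against viruses, were lower as a list. Of 29 tested, 18 fell and 0 rose, beside 10.1% and 9.08% of all genes. Cxcl10 passed the detection filter only through the control arrays. Of the 27 members detected on all 8 arrays, 16 fell and 0 rose. Of the 29 differences, 28 were below 0, and the median was -0.72. Oasl1, a relative of the oligoadenylate synthetases, read 7.04, 7.45, 7.63 and 7.03 in garlic oil mice, against 9.05, 9.21, 9.23 and 8.77 in control mice. It fell 3.43-fold (adjusted p = 5.66e-05). Irf9, the DNA-binding subunit of the interferon-activated factor ISGF3, read 8.39, 8.32, 8.34 and 8.25 in garlic oil mice and 9.38, 9.21, 9.29 and 9.37 in control mice. Both groups were tight, and Irf9 fell 1.98-fold (adjusted p = 5.23e-05). Irf7, which amplifies the type I response, read 6.21, 6.67, 6.84 and 6.82 in garlic oil mice and 8.14, 7.86, 7.66 and 7.61 in control mice. It fell 2.27-fold (adjusted p = 0.000136).

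Irgm2, an immunity-related GTPase, read 10.21, 9.66, 9.74 and 10.16 in garlic oil mice and 10.95, 10.75, 11.18 and 11.41 in control mice, and fell 2.19-fold (adjusted p = 0.000621). The related GTPase Igtp fell by 1.15 ± 0.21, Rsad2, which encodes viperin, by 1.23 ± 0.24 and the dynamin-like Mx2 by 1.16 ± 0.21. Members that did not pass included Ddx58 (-0.01), which encodes the RNA sensor RIG-I, Gbp2 (-0.09) and Ifit3 (-0.35). Between 14 and 20 members fell under the settings that kept all arrays, the fewest under median scaling, and 0 rose under any of them. Of 8 lymphocyte and MHC class II markers tested, all 8 differences were below 0 and 1 fell; their summed intensity was 3098 to 6558 in garlic oil mice and 4666 to 7983 in control mice, and their part in the result was not tested.

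**Figure D4:**
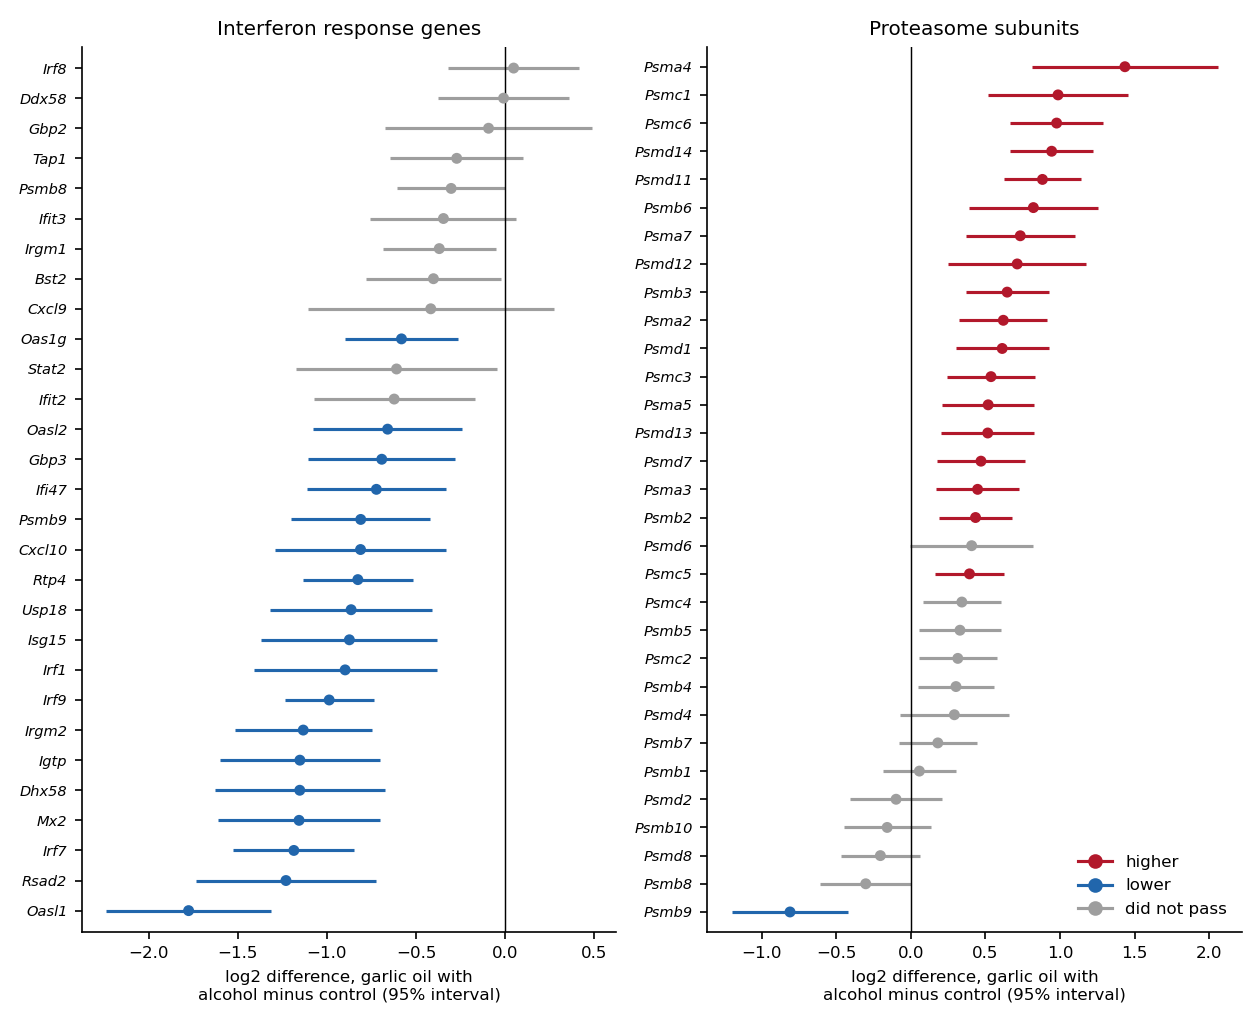
Log2 difference, garlic oil with alcohol minus control, of each tested interferon-response gene (left) and proteasome subunit (right); points are fitted differences and lines their 95% intervals (n = 4 mice per group), red where the gene rose, blue where it fell and grey where it did not pass. All but 1 interferon point lie below 0 and 26 of 31 proteasome points lie above 0; Psmb8 and Psmb9, the inducible subunits, belong to both lists.

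Because many members fell together, the promoters of the interferon list were read for the paired half-site that interferon regulatory factors are known to bind. The windows are those of RefSeq (GRCm38.p6), from 250 bases before to 50 bases after each annotated start, and 25 of the 29 members had 1. The letters GAAANNGAAA, on either strand and with overlapping matches allowed, were found in 13 of these 25 windows (52%), against 1079 of 27025 genes with a window (3.99%). The share was 7 of 14 (50%) among members that fell and 6 of 11 (54.5%) among those that did not pass. The windows of 4 members that fell and held a match, taken in order of p, show how close to the start the shared letters lie. They run 5′ to 3′ along the gene's strand, with the matching letters in capitals. The windows of Irf9, Oasl1 and Irf7, which also fell, held no match. Irgm2 is at chr11:58214727-58215026 (+), Igtp at chr11:58199306-58199605 (+), Rsad2 at chr12:26456403-26456702 (-) and Oas1g at chr5:120887564-120887863 (-).
Irgm2: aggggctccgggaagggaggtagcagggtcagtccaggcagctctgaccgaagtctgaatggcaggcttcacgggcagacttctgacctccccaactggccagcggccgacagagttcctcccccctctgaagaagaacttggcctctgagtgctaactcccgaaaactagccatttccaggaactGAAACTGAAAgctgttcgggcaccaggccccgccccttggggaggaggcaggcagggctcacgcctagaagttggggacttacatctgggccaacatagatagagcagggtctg
Igtp: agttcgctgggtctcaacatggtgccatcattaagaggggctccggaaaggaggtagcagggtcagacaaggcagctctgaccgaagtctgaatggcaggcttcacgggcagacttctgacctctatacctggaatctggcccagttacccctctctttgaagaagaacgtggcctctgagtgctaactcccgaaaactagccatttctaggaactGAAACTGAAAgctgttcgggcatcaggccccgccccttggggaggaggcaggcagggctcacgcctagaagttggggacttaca
Rsad2: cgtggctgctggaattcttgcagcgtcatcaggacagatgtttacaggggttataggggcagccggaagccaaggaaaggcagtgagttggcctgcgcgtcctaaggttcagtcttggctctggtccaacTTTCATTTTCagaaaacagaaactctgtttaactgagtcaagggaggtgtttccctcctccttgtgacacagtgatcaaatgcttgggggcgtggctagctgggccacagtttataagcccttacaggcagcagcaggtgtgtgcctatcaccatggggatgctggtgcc
Oas1g: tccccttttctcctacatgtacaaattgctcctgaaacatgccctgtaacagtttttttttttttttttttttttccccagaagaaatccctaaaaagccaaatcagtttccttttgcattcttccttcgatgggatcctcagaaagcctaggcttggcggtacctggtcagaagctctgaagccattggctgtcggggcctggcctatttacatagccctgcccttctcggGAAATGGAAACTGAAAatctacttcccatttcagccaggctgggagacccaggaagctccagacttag
The first match begins 64 bases before the start in Irgm2, 34 in Igtp, 120 in Rsad2, where it lies on the opposite strand, and 18 in Oas1g, which holds 2 overlapping matches. The Irgm2 and Igtp windows share a run of 61 identical bases. Oas1g, a 2′-5′-oligoadenylate synthetase, fell by 0.58 ± 0.15. A core of the antioxidant response element bound by NRF2, TGACNNNGC on either strand, was found in 3 of 17 glutathione S-transferase windows (17.6%) and in 5 of 16 windows of the other NRF2 targets (31.2%), against 14% of all genes. A match is a description of these letters and not of binding.

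Among complement factors, 7 of 17 fell and 1 rose. C6, a component of the membrane attack complex with male-biased expression, read 9.07, 9.43, 10.29 and 9.77 in garlic oil mice and 12.36, 11.96, 12.19 and 12.10 in control mice. It fell 5.70-fold (adjusted p = 3.82e-05). C8b, of the same complex, fell by 0.83 ± 0.16, and C4b, of the classical pathway, by 0.65 ± 0.14. The number of falls was 4 under median scaling and without garlic oil replicate 1 or control replicate 1, 2 or 3. Of 22 acute phase proteins, 13.6% changed (3 rose and 0 fell), beside 19.1% of all genes. The median difference was -0.07, and 13 differences were below 0. Among the 3 that rose, Lbp, which binds lipopolysaccharide, did so by 0.94 ± 0.19. Of 27 serpins and coagulation factors, 14.8% changed (1 rose and 3 fell). Among them, Serpina12, an adipokine also known as vaspin, fell 8.76-fold. It read 8.63, 8.45, 10.16 and 10.01 in garlic oil mice and 13.03, 12.53, 12.64 and 11.58 in control mice. Of 17 iron and heme genes, 23.5% changed (3 rose and 1 fell). Hamp, the iron hormone hepcidin, differed by 0.39 (adjusted p = 0.321), while Tfrc, the transferrin receptor, rose by 1.29 ± 0.29 and Tfr2 fell by 0.63 ± 0.13.

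Markers of other cell types were read from the same fit. The hepatocyte markers fixed for the check, Apoa1, Ttr, Trf and Ahsg among them, were detected on all 8 arrays. Of 10 hepatocyte markers tested, 2 rose and 0 fell. Of 4 erythroid genes tested, 3 rose, but Slc4a1 passed the detection filter only through the garlic oil arrays. Of the 2 detected on all 8 arrays, 1 rose, beside 9.08% of all genes. Slc4a1, the anion exchanger of red cells, read 7.51, 8.07, 7.29 and 7.24 in garlic oil mice, against 4.95, 5.27, 5.54 and 5.36 in control mice, where no array detected it, and was at least 3.47-fold higher (adjusted p = 7.97e-07). The globin gene Hba-a1 rose 1.67-fold and Hbb-b2 2.95-fold, while Alas2, the erythroid enzyme of heme synthesis, differed by -0.19. The summed intensity of the list was 47138 to 54427 in garlic oil mice and 29826 to 32192 in control mice. In alcohol mice Hbb-b2 differed from control by -0.25 and Hba-a1 by -0.43, and Slc4a1 and both globins were higher in garlic oil than in alcohol mice (adjusted p = 2.4e-06, 0.00066 and 0.00093 for Slc4a1, Hbb-b2 and Hba-a1). This step follows the chip as well as the treatment, and the 2 cannot be told apart.

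Of 11 neutrophil markers on the array, 4 were tested and 2 rose: S100a8 and S100a9, calcium-binding proteins of myeloid cells, by 1.69 ± 0.43 and 1.62 ± 0.35. Neither was detected on all control arrays. Of the 1 marker detected on all 8 arrays, 0 rose, beside 9.08% of all genes. Lcn2, which hepatocytes also make, differed by 1.38 (adjusted p = 0.142) and Csf3r by -0.04. The granule genes Mpo, Ltf and Camp and the receptor gene Cxcr2 were detected on 0 arrays, and the elastase gene Elane on 0 garlic oil arrays and 3 control arrays. S100a8 read 7.89, 7.94, 6.74 and 8.13 in garlic oil mice and 6.99, 5.52, 5.98 and 5.43 in control mice, with overlap of 1 array on each side. Of 17 Kupffer cell and macrophage markers, 2 rose and 0 fell: the scavenger receptors Marco (1.69 ± 0.31) and Cd163 (0.84 ± 0.17). The pan-macrophage marker Adgre1 differed by -0.01 and the Kupffer cell marker Clec4f by -0.10. The summed intensity of that list was 23156 to 32541 in garlic oil mice and 24838 to 26894 in control mice. Among inflammatory genes, 2 of 14 rose and 2 fell, and Vcam1, an adhesion molecule for leukocytes, rose 3.21-fold, with 9.13, 8.99, 9.11 and 9.09 in garlic oil mice and 7.54, 7.16, 7.28 and 7.60 in control mice. Endothelial markers gave 2 rises and 1 fall of 19, stellate cell and fibrosis markers 2 rises and 1 fall of 16, cholangiocyte markers 0 changes of 3 and pancreatic acinar markers 0 of 5, and no adipocyte marker was tested. The part of these cell types in the results was not tested.

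The alcohol mice share the ethanol diet with the garlic oil mice and the chip with the control mice, so each comparison's own values are given side by side. In the same fit, 302 genes (3.87%) changed in alcohol mice against control mice and 162 (2.07%) in garlic oil mice against alcohol mice. Without alcohol replicate 1 these counts were 221 and 89. Both comparisons share arrays with the main one. Cyp2b10 differed by 5.95 in garlic oil mice and by 5.26 in alcohol mice over the same controls, and the direct difference did not pass (adjusted p = 0.42). Cyp2b9 was the P450 of that subfamily that passed between them, 1.42 higher in garlic oil than in alcohol mice (adjusted p = 0.039), though not without alcohol replicate 1 (1.35, adjusted p = 0.073). Slco1a4 rose in garlic oil mice (1.51) and differed by -0.29 in alcohol mice, and the direct difference was 1.81 (adjusted p = 0.00093). For Cyp17a1 these values were 2.27 and -0.47, with a direct difference of 2.74 (adjusted p = 0.0061).

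Among the falls, Tsc22d1 differed by -4.04 in garlic oil mice and by -3.00 in alcohol mice, and Cyp7a1 by -3.66 and by -3.96. The male-biased genes Hsd3b5 (-5.15 and -2.96), Elovl3 (-2.92 and -1.50) and Cyp4a12a (-2.90 and -1.23) were further below control in garlic oil mice than in alcohol mice, but the direct differences did not pass (adjusted p = 0.34, 0.13 and 0.12). Serpina4-ps1, a pseudogene of the serpin cluster, was the gene among the 15 largest falls with the smallest alcohol value, at -2.34 and -0.24, and its direct difference of -2.10 passed (adjusted p = 0.015). Of the interferon genes named above, Oasl1 (-1.15, adjusted p = 0.014) and Irf7 (-0.68, adjusted p = 0.041) were lower in garlic oil than in alcohol mice, and Irf9 (-0.31, adjusted p = 0.17) and Irgm2 (-0.49, adjusted p = 0.16) did not pass. Garlic oil and chip cannot be told apart in these direct differences.

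**Figure D5:**
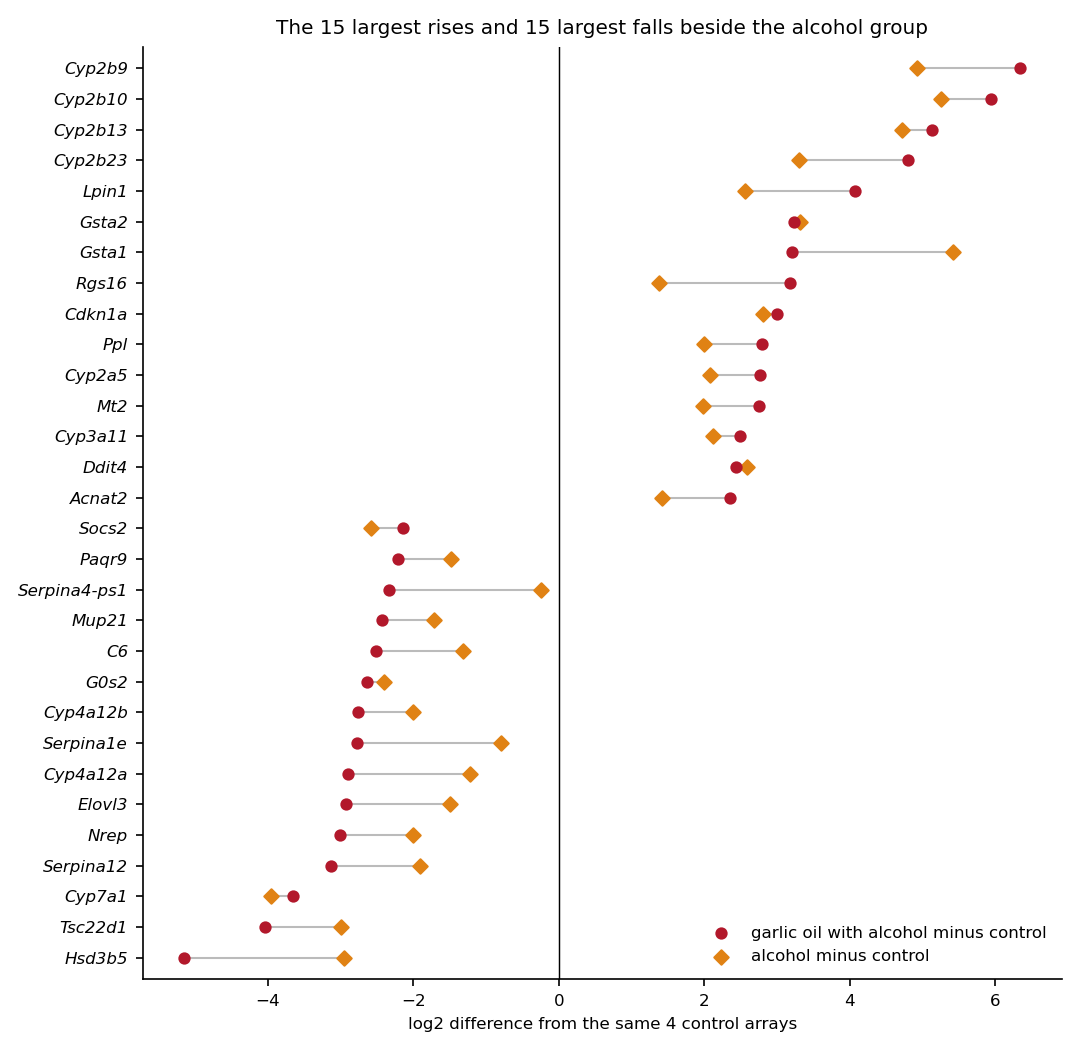
Log2 differences from the same 4 control arrays of the 15 genes that rose most and the 15 that fell most in garlic oil mice, for garlic oil with alcohol (red circles) and alcohol alone (orange diamonds). Gsta1 is farther from control in alcohol mice (3.21 in garlic oil mice, 5.42 in alcohol mice), and Serpina4-ps1 lies near 0 in alcohol mice, at -0.24.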

How the data were processed

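Total RNA taken with TRIzol from the liver of each mouse (500 ng) was labelled and read on Illumina arrays of 1 colour, as the labels state. The deposited intensity is the mean bead signal of each of 25697 probes, on a linear scale and not normalized. A deposited p-value per probe, per the file headers, gives its detection over negative controls. The authors' deposited table holds background-adjusted, normalized intensity; per the submitters' processing notes, GenomeStudio, lumi and limma were used, in versions not given.

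Signals of all 16 arrays were processed with limma 3.58.1 (R 4.3.3): neqc with an offset of 16, log2 scale, negative control level estimated from the detection p-values. Of 11071 probes passing the detection filter, 10416 had a gene symbol by the platform annotation, updated through RefSeq gene identifiers, and each gene was represented by its probe of highest mean. Of the genes that changed, 4 had another probe called in the opposite direction. For 1948 genes more than 1 probe passed. Probe sequences were not used, so the specificity of probes within gene families such as Cyp2b, Cyp4a, Gsta and Mup was not checked. One fit of 4 group means (12 residual degrees of freedom) with moderated, two-sided tests gave all comparisons. A bound is the mean of the detecting group over the mean, per array, of the higher of the detection limit and the probe's own value in the other. The fit was tested on simulated data.

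The members and the 48 gene lists were chosen with earlier results of these data known, so no list was tested. Named genes are the 15 largest rises and 15 largest falls where every array of the higher group detected the gene, at most 4 changed genes per list in order of p, and 25 fixed genes of liver biology, of which Fasn, Cd36 and Tnf were not tested. Where few members of a list stood out, others were named after their values were seen. Alternatives were median scaling, no background correction, the authors' table, other detection filters, an offset of 50, array weights, a trended and robust prior, the mean of all probes, other sets of arrays, a replicate block and leaving out each replicate. Same-numbered mice did not pair by their correlations (-0.10 to 0.15).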

Additional observations from a re-analysis of the deposited data

Results flagged for a closer look

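Of 314 sets of 4 values tested, 18 held 1 array whose gap to its nearest neighbour was a larger share of the group's range than Dixon's 95% limit for 4 values; chance gives about 1 set in 20. Among garlic oil arrays, replicate 1 was apart for Abcc3 (0.981), Gstt3 (0.882) and Ddit3 (0.951), and replicate 4 for Rpl30 (0.848). Replicate 3 was apart for Mt1 (0.856), Pck1 (0.924), Slc39a4 (0.912), S100a8 (0.830) and S100a9 (0.849). Among control arrays, replicate 1 was apart for Cyp2b23 (0.872), S100a9 (0.862) and Lum (0.872), and replicate 2 for Ces2a (0.835). Control replicate 3 was apart for Ppl (0.890) and Usp2 (0.899), and control replicate 4 for Abcc3 (0.925), Cyc1 (0.869) and Cyp2c38 (0.942). Of these genes, Cyc1 and Lum did not keep their call under every alternative, and Ddit3 had none.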

How the results depend on the processing

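Of 143 named genes that rose or fell, 116 kept direction and call under every alternative that tested them, 26 did not pass under at least 1, and Ugt1a6a turned to -0.351 with the mean of its probes. Settings that kept all arrays gave 1262 to 1836 changed genes. Under median scaling 344 genes fell. Leaving out 1 replicate at a time gave 929 to 1449 changed genes, 460 to 701 rises and 469 to 748 falls, with the fewest without control replicate 2 (929, 460 and 469) and 519 falls without control replicate 3. With the replicate number as a block among the 8 arrays, 1441 genes changed (731 rises and 710 falls), and 137 of the 143 named calls were kept. With alcohol replicate 1 left out of the fit but kept in the normalization, 1526 genes changed (724 rises and 802 falls). Within the fit, that array enters this comparison only through the shared estimate of spread. Differences near 0 that had not passed changed sign when 1 replicate was left out, over ranges of -0.427 to 0.0023 for Plin2, -0.11 to 0.26 for Srebf1 and -0.11 to 0.143 for Igf1: Plin2 without garlic oil replicate 2 (0.0023), Srebf1 without garlic oil replicate 3 (-0.11), control replicate 1 (-0.0031) or control replicate 4 (-0.034), and Igf1 without garlic oil replicate 3 (-0.052) or 4 (-0.11) or control replicate 2 (-0.024) or 4 (-0.025). The causes were not tested. Dim probes limit the folds of genes near the detection limit.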

Other observations

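Genes of energy metabolism and protein synthesis differed by small amounts. Of 32 subunits of oxidative phosphorylation, 7 rose and 1 fell, beside 9.08% and 10.1% of all genes, with a median difference of 0.10. Among them, Ndufb9, of complex I, read 12.49, 12.86, 12.64 and 12.84 in garlic oil mice and 12.20, 12.15, 12.08 and 12.33 in control mice and rose by 0.52 ± 0.14, while Cyc1, of complex III, fell by 0.37 ± 0.11. The count of rises was 1 to 4 when any 1 array was left out and up to 10 under median scaling. Of 21 cytosolic ribosomal proteins, 3 rose and 0 fell. The number of rises was 1 without garlic oil replicate 4 and 2 without control replicate 1, 2 or 3. Of 22 genes of amino acid catabolism, 3 rose and 0 fell, the histidine ammonia-lyase Hal by 0.89 ± 0.15, the proline dehydrogenase Prodh by 0.85 ± 0.18 and the tryptophan dioxygenase Tdo2 by 1.01 ± 0.23; 8 rose under median scaling.

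Some of the largest changes belong to genes in none of the lists. Ppl, the cytoskeletal linker periplakin, read 8.17, 8.46, 7.58 and 8.20 in garlic oil mice and 5.16, 5.12, 5.78 and 5.19 in control mice, where 1 array detected it. It rose 6.92-fold on this probe (adjusted p = 7.97e-07 in limma's fit), while the gene's other passing probe differed by 0.30 on the log2 scale. Acnat2, an acyl-CoA amino acid acyltransferase, rose 5.10-fold. Nrep, a small protein first described in neurons, read 6.86, 6.48, 7.15 and 7.47 in garlic oil mice and 10.59, 9.71, 9.88 and 9.84 in control mice, and fell 8.07-fold. Paqr9, of the progestin and adipoQ receptor family, fell 4.65-fold, with 11.96, 11.36, 11.81 and 11.55 in garlic oil mice and 13.70, 13.92, 13.94 and 13.99 in control mice.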
